A study of Mus musculus with 6 samples.

Results

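The genes described here encode plasma proteins and their relatives: serpins, apolipoproteins, fibrinogen chains, coagulation factors, complement proteins and inter-alpha-trypsin inhibitor heavy chains. Members were all probes whose single gene symbol in the platform annotation begins with or matches the symbols of these families, with C1qa left out. The rule found 79 probes of 53 genes among the 21888 probes of the array. By its letters it also took in genes of other kinds, such as those of C1q domain hormones, and these are given apart. The study compared pancreas from Sox4-/- mouse embryos at embryonic day 12.5 with pancreas from their wild-type littermates. Each of 6 spotted arrays was hybridised with wild-type RNA in channel 1 and knockout RNA in channel 2, and the deposited table gives 1 log2 ratio per probe and array. The mutant embryos were homozygous for a Sox4 knockout made in an earlier study, and the labels used here give no strain. Pancreases were pooled in 2 groups and the RNA was amplified before labelling. The labels state this for arrays 1 and 2, and repeat hybridisations of the same pools are possible.

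Serpins are a superfamily of proteins, most of which trap a target protease in an irreversible complex. Apolipoproteins carry lipids in the blood, fibrinogen is cleaved by thrombin to form the clot, and complement is a protease cascade that marks and lyses cells. Hepatocytes make most of these proteins, and the fetal liver and visceral endoderm make many of them before birth. The embryonic pancreas forms from gut endoderm next to the liver bud.

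Values under 0 are taken to mean less signal from the knockout RNA. That direction is only likely, from the channel order and the titles, because the dyes are not stated in the sources used here. Dye bias and a true difference cannot be told apart without a known dye swap. The 2 probes of Sox4 itself were at -0.16, 0.41, -0.35, 0.01, -0.01 and -0.06, and at -0.06, -0.03, -0.35, -0.01, -0.10 and 0.00, on arrays 1 to 6. Neither passed (limma adjusted p 0.892 and 0.446), so these values do not check the labels, and whether the probes lie within the deleted sequence is not given. The values are ratios, so the level of any gene, and thus the identity of the tissue by its markers, cannot be read from them. In bulk tissue, fewer cells of a type and less RNA per cell cannot be told apart. Ratios correlated across probes at a Spearman's rho of 0.44 to 0.58 within arrays 3 to 6 and 0.52 between arrays 1 and 2, against 0.06 to 0.32 between these sets. P-values rest on the scatter among arrays and may reflect technical variation alone.

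Promoter sequence is shown for 3 genes whose probes were far under 0 together, the fibrinogen chains Fgb and Fgg and the antitrypsin gene Serpina1e. RefSeq's promoter table (build GRCm38.p6) held 45 of the 53 genes, and Apoc1, Serpinb1a and C1qtnf1 were not among them. Each sequence is the 250 bases before the annotated start, 5′ to 3′ on the gene's strand. Capitals mark matches on either strand to GTTAAT, the core of the motif of the liver factor HNF1, or to TTNNGNAA, a core of C/EBP motifs. The windows are chr3:83049864-83050113 on the minus strand, chr3:83007474-83007723 on the plus strand and chr12:103956898-103957147 on the minus strand.
Fgb: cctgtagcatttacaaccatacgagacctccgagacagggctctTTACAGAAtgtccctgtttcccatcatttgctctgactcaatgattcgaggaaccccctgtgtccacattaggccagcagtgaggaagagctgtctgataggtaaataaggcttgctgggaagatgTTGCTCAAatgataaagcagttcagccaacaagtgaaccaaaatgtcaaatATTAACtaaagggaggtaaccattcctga
Fgg: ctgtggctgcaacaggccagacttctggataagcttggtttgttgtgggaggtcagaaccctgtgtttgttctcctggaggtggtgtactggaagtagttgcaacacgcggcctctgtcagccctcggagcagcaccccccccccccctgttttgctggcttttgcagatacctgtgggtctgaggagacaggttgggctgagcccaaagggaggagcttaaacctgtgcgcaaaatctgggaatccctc
Serpina1e: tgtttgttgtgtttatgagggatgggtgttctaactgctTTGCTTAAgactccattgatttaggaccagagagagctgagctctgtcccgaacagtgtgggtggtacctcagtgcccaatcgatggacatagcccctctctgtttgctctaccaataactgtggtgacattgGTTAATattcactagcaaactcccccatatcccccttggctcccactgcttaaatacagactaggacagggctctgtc

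GTTAAT stood in the windows of Fgb, from -29 to -24 relative to the start on the opposite strand, and of Serpina1e, from -78 to -73 on the gene's strand. TTNNGNAA matched in Fgb from -206 to -199 and from -80 to -73, and in Serpina1e from -211 to -204. The letters of neither were in the Fgg window. Among all 32851 promoter windows of the same length, 6.43% held GTTAAT and 36.8% held TTNNGNAA. Among the 45 member genes, 6 held GTTAAT (13.3%) and 20 held TTNNGNAA (44.4%). These are shares of genes beside shares of windows, and the 6 include both Serpina1d and Serpina1e, copies of 1 family. The Sox motif letters AACAAT and AACAAAG, in 9.42% and 5.03% of all windows, were in none of the 3 windows shown. These matches describe the letters of the windows and do not show binding.

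Of the 79 probes, 76 had a value on at least 4 arrays and were tested, for 51 genes. In limma's test with Benjamini-Hochberg adjustment over all 21247 tested probes, 11 of the 76 were past an adjusted p of 0.05, or 14.5%, against 5.49% of all tested probes. There were 9 under 0 (11.8%, against 3.53% of all probes) and 2 above 0 (2.63%, against 1.96%). The 9 belonged to Fgb, Fgg, Serpina1e, Serpinb1a, Apoc1 and C1qtnf1, and the 2 to Serpinb9c and Serpinb11. At an unadjusted p under 0.05 there were 32 of 76 probes, or 42.1%, against 27.6%. The members as a whole lay where all probes lay, with a median of the mean log2 ratios of 0.02 against 0.03 over all tested probes, and 36 means were under 0 and 40 above.

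**Figure D1:**
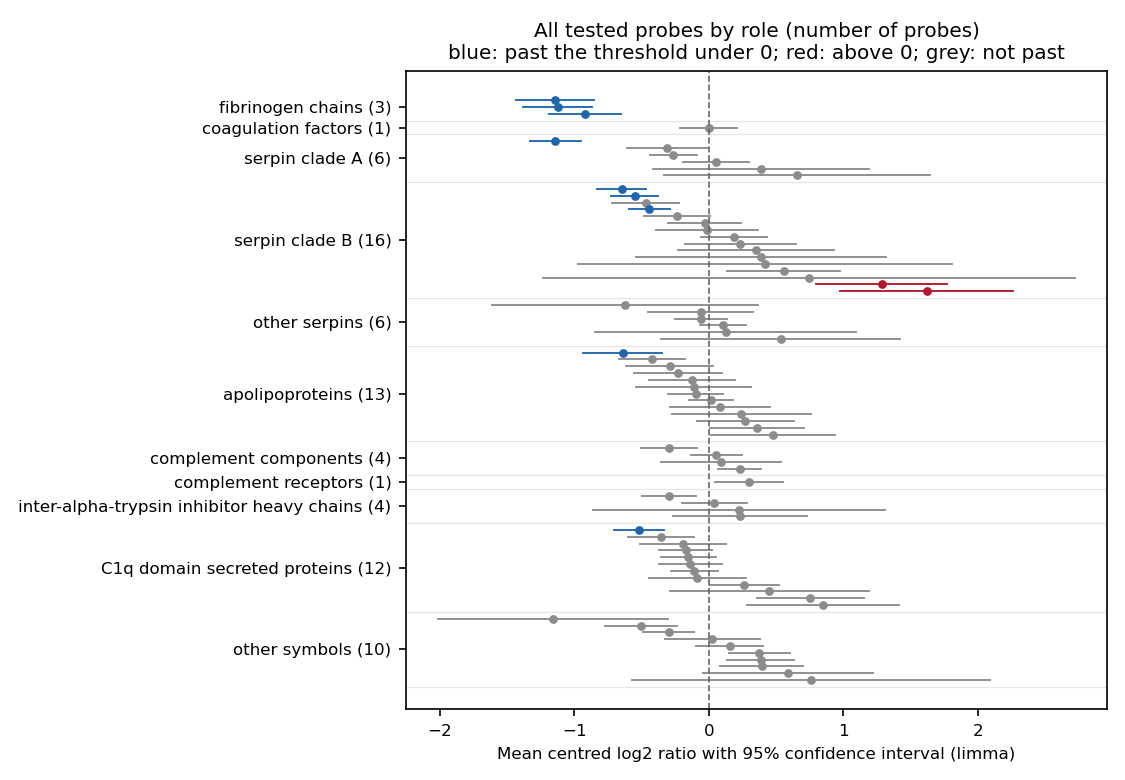
Mean centred log2 ratio of each of the 76 tested probes (point) with its 95% confidence interval from limma (line), grouped by role, with the number of probes in parentheses. All 3 fibrinogen probes lie near -1, while the other groups spread around 0, with 5 of 16 clade B serpin probes past the threshold and at most 1 probe in each other group.

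Fibrinogen was the one role group in which every tested probe passed. Fgb encodes the beta chain of fibrinogen. Its probe ZX-00135H16 had log2 ratios of -1.08, -0.60, -1.28, -1.28, -1.26 and -1.23 on arrays 1 to 6. All 6 arrays were under 0, and array 2 was nearest to it. The mean was -1.12 ± 0.26 (SD, n = 6), a 2.18-fold lower ratio in the RNA labelled knockout, with a limma adjusted p of 0.0127. The other Fgb probe, ZX-00138C02, had values of -0.85, -0.46, -1.15, -1.21, -0.80 and -1.04, again with array 2 nearest to 0. Its mean was -0.92 ± 0.28 (SD, n = 6; limma adjusted p 0.0211).

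Fgg encodes the gamma chain. Its only probe, ZX-00144M16, had log2 ratios of -1.37, -1.54, -0.96, -1.20, -1.12 and -0.66. Here array 2 was furthest from 0 and array 6 nearest, so the arrays were ordered otherwise than for Fgb. The mean of -1.14 ± 0.31 (SD, n = 6; limma adjusted p 0.0193) was a 2.21-fold lower ratio. The gene of the alpha chain, Fga, which lies between Fgg and Fgb in RefSeq's gene order, was not analysed here. The only member among the numbered coagulation factors was F11, factor XI of the contact pathway. Its mean was 0.0011 ± 0.20 (SD, n = 6), with values from -0.16 to 0.37. A ratio of the size of fibrinogen's lay outside its 95% interval of -0.21 to 0.21. Signal over background is unknown, so the interval holds for the measured ratio and not for F11 RNA itself.

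**Figure D2:**
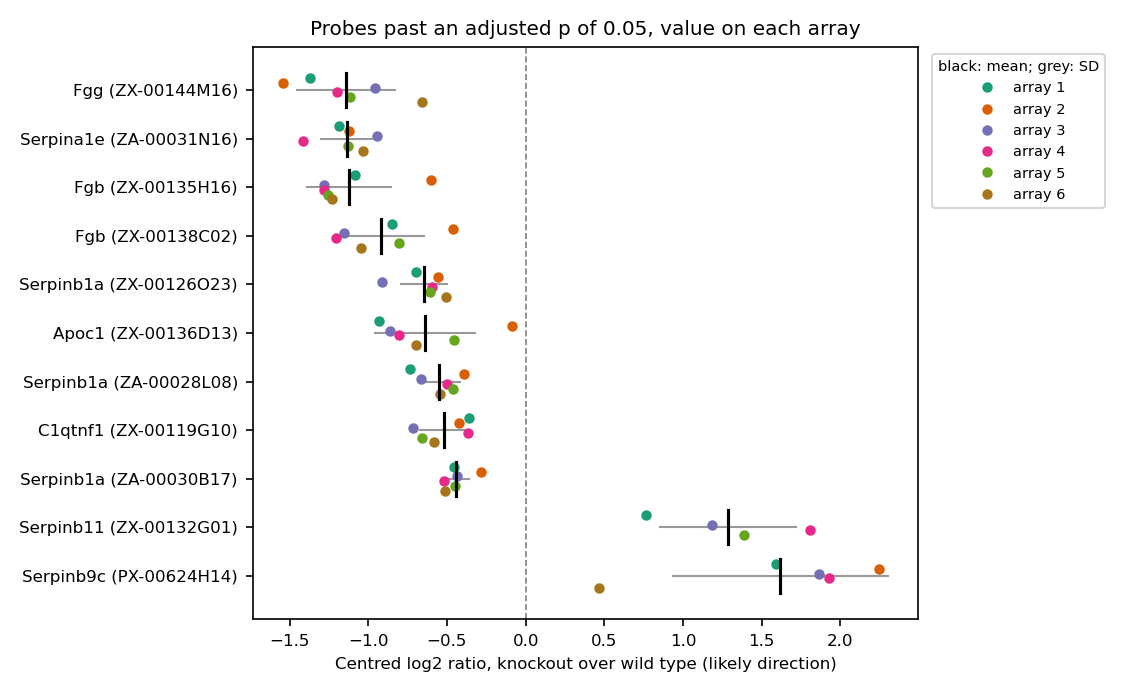
Centred log2 ratio on each array (coloured points) of the 11 probes past an adjusted p of 0.05, with the mean (black bar) and SD (grey line). The 9 probes under 0 have every array under 0, with Apoc1 on array 2 the closest at -0.09, and the 2 above 0 have every measured array above it.

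Clade A holds the secreted serpins of plasma. Serpina1e encodes an alpha-1-antitrypsin, an inhibitor of neutrophil elastase that mice carry in several near-identical copies. Its probe ZA-00031N16 had log2 ratios of -1.18, -1.12, -0.94, -1.42, -1.13 and -1.04. The 6 values were all under 0 and none stood apart from the others. The mean was -1.14 ± 0.16 (SD, n = 6), a 2.20-fold lower ratio, with the smallest adjusted p among the members (limma, 0.00597). A cDNA probe may bind RNA of the other copies, so the ratio cannot be assigned to 1 of them. The probe of Serpina1d, another copy, had values on only 3 arrays, 0.01, -0.14 and 1.80, and was not tested.

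The other clade A probes did not pass. Serpina1f, a relative in the same chromosome 12 cluster, was at 0.06 ± 0.25 (SD, n = 6), with a 95% interval of -0.19 to 0.30. Serpina12, which encodes the adipokine vaspin, was at -0.26 ± 0.13 (SD, n = 6), with all 6 arrays under 0 and a limma adjusted p of 0.0815, and at 0.39 ± 0.87 (n = 5) at its other probe. Serpina9, expressed in germinal centre B cells, was at -0.31 ± 0.32 (SD, n = 6). Serpina3a had the highest mean of the clade, 0.65 ± 1.08 (SD, n = 5), with values from -0.21 to 2.50 that spanned 0.

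Clade B serpins mostly stay inside the cell. Serpinb1a encodes an inhibitor of neutrophil elastase, cathepsin G and related serine proteases. All 4 of its probes had every array under 0, and 3 of them passed. Probe ZX-00126O23 was at -0.69, -0.56, -0.92, -0.60, -0.61 and -0.51, with a mean of -0.65 ± 0.15 (SD, n = 6; limma adjusted p 0.0207). Probe ZA-00028L08 was at -0.55 ± 0.13 (SD, n = 6; limma adjusted p 0.0251), with values from -0.74 to -0.39. Probe ZA-00030B17 was at -0.44 ± 0.08 (SD, n = 6; limma adjusted p 0.0291), with values from -0.52 to -0.29. The remaining probe, ZX-00129I22, was at -0.47 ± 0.25 (SD, n = 6) with an adjusted p of 0.0518, and its array 2 stood at -0.98 while the others lay between -0.42 and -0.33. The highest and lowest of the 4 probe means thus differed by 0.20 on the log2 scale, and the average over them was -0.53.

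Serpinb1b, a close relative of Serpinb1a in the same chromosome 13 cluster, was above 0 on all 6 arrays, from 0.07 to 1.32, with a mean of 0.56 ± 0.48 (SD, n = 6) and a limma adjusted p of 0.107, so it did not pass. The difference between these relatives was not tested. Serpinb9c belongs to the mouse expansion of Serpinb9, an inhibitor of granzyme B. Its probe PX-00624H14 had values of 1.59, 2.25, 1.86, 1.93 and 0.47 on arrays 1, 2, 3, 4 and 6 and none on array 5. The mean was 1.62 ± 0.68 (SD, n = 5; limma adjusted p 0.0362), a 3.07-fold higher ratio. Its other probe, PX-00616E14, was at 0.75 ± 1.94 (SD, n = 4), with values of -0.15, -1.11, 0.86 and 3.39 on both sides of 0.

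Serpinb11 encodes a serpin of epithelia. Its probe ZX-00132G01 was at 0.77, 1.18, 1.80 and 1.39 on arrays 1, 3, 4 and 5, a mean of 1.28 ± 0.43 (SD, n = 4; limma adjusted p 0.039). The other Serpinb11 probe, ZX-00129N07, was at -0.03 ± 0.28 (SD, n = 6), so the probes of this gene disagreed by 1.31 on the log2 scale. Of the deposited ratios of the Serpinb9c and Serpinb11 probes that passed, 80% and 75% were quotients of whole numbers up to 20, the form that ratios of very small whole-number intensities take. Both therefore count as probes with mostly such ratios, as did 0 of the 9 probes under 0 and 12% of all tested probes. Of those 9, the Fgg probe stood at 50%, right at the cut of over 50%, and the others at 0% or 16.7%. The part of low signal in the Serpinb9c, Serpinb11 and Fgg calls was not tested. Both calls above 0 were also lost with limma's treat and with arrays 3 to 6 alone. With the array set (1 and 2, or 3 to 6) as a term they were lost too (limma adjusted p 0.0508 and 0.0552). The Serpinb11 call was lost with scale normalization as well (limma adjusted p 0.0582).

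The other 7 clade B probes did not pass, with means from -0.23 for Serpinb5, known as maspin, to 0.42 for Serpinb3c. The Serpinb3c probe ranged from -1.14 to 3.63. Among the serpins of other clades, none of 6 probes passed. Serpinh1 encodes HSP47, the collagen chaperone of the endoplasmic reticulum. It was at 0.11 ± 0.12 and 0.53 ± 1.06 (SD, n = 6), the second resting on a value of 2.66 on array 6 and at 0.11 without it. Serpinf1, which encodes the anti-angiogenic factor PEDF, had the lowest mean of this group, -0.62 ± 1.19 (SD, n = 6), from values of -0.17, -0.59, 0.61, -1.94, 0.51 and -2.14 on both sides of 0. Serpini2, a serpin known from pancreas under the name pancpin, had means of -0.06, -0.06 and 0.12 at its 3 probes.

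Of 13 apolipoprotein probes for 9 genes, 1 passed, that of Apoc1. Apoc1 encodes a small exchangeable apolipoprotein of lipoproteins rich in triglyceride. Its log2 ratios were -0.94, -0.09, -0.86, -0.81, -0.46 and -0.70, all under 0 and with array 2 close to it. The mean was -0.64 ± 0.32 (SD, n = 6), a 1.56-fold lower ratio, with a limma adjusted p of 0.0415, and the call was lost without median centring, with limma's treat, with arrays 3 to 6 alone and with the array set (1 and 2, or 3 to 6) as a term (limma adjusted p 0.0612). Apoe, the ligand of lipoprotein receptors and the gene next to Apoc1 in RefSeq's order, was at -0.13 ± 0.35 and 0.24 ± 0.60 (SD, n = 6) at its probes. Both had their highest value on array 2, at 0.49 and 1.45.

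The genes Apoc3, Apoa4 and Apoa5 lie side by side on chromosome 9, and none passed. Apoa5, a regulator of plasma triglyceride, was under 0 on all 6 arrays at probe ZA-00031N23, at -0.42 ± 0.25 (SD, n = 6; limma adjusted p 0.0633), and at -0.11 ± 0.49 at its other probe. Apoa4, an apolipoprotein of chylomicrons, was at -0.29 ± 0.36 (SD, n = 6). Apoc3, an inhibitor of lipoprotein lipase, was at -0.10 ± 0.19 and 0.36 ± 0.39 (SD, n = 6). Apom, the carrier of sphingosine 1-phosphate in HDL, had the highest mean of the family, 0.48 ± 0.53 (SD, n = 6; limma adjusted p 0.168), with array values from -0.15 to 1.17. Apoh, or beta-2-glycoprotein I, was at 0.08 ± 0.42, and Apol6 was at 0.01 ± 0.11. Apoo, a protein of the mitochondrial inner membrane despite its name, was at -0.23 and 0.27.

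None of the 4 complement component probes passed, and their means lay between -0.30 and 0.23. C1qb, a chain of the recognition molecule C1q, was at 0.06 ± 0.16 (SD, n = 6), with a 95% interval of -0.13 to 0.24. C1ra, a protease of the C1 complex, was above 0 on all 6 arrays, at 0.19, 0.21, 0.42, 0.22, 0.24 and 0.09, with a mean of 0.23 ± 0.11 (SD, n = 6) and a limma adjusted p of 0.0935. C8g, a chain of the membrane attack complex, was under 0 on all 6, with a mean of -0.30 ± 0.19 (SD, n = 6; limma adjusted p 0.0934). C8b, another chain of that complex, was at 0.09 ± 0.52, under 0 on arrays 1 and 2 and above 0 on arrays 3 to 6. C3ar1, the receptor of the anaphylatoxin C3a, was at 0.30 ± 0.26 (SD, n = 6; limma adjusted p 0.135).

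Some of the inter-alpha-trypsin inhibitor heavy chains bind hyaluronan in the matrix. None of the 4 probes for heavy chain genes passed. Itih5 was at -0.30 ± 0.18 (SD, n = 6; limma adjusted p 0.0842) at probe PX-00616D15, with all arrays under 0, and at 0.23 ± 0.58 at the other, where array 2 stood at 1.38. Itih4 was at 0.04 ± 0.24 and 0.23 ± 1.30 (SD, n = 6).

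The rule also matched 22 tested probes of 14 genes by letters alone. Of 12 probes for C1q domain proteins, which are secreted relatives of C1q and adiponectin, 1 passed. C1qtnf1 had values of -0.36, -0.42, -0.71, -0.37, -0.66 and -0.58, all under 0, with a mean of -0.52 ± 0.15 (SD, n = 6; limma adjusted p 0.0302). C1qtnf12 had 4 probes that fell on both sides of 0, at -0.35, -0.14, 0.76 and 0.85, none past the threshold. The others of this kind were C1ql3, C1qtnf2, C1qtnf4, C1qtnf6 and C1qtnf7, with means from -0.19 to 0.45.

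The 10 remaining probes were those of C1d, C1galt1, C1qbp, C2cd2, C2cd5, C2cd6 and C9orf72, and none passed. C1d, a cofactor of the nuclear exosome, was nearest to it, at -0.50 ± 0.28 (SD, n = 6; limma adjusted p 0.0517), with all arrays under 0. C1qbp, a mitochondrial matrix protein, was at 0.40 and 0.38 at 2 probes and at -1.16 ± 1.02 (SD, n = 6) at a probe whose ratios were all quotients of small whole numbers. C2cd2 had the highest mean, 0.76 ± 1.60 (SD, n = 6), with 3.80 on array 5. Besides Serpina1d, the probes not tested were those of C1qtnf3, at -0.36, -0.73 and 1.39 on 3 arrays, and another probe of C1qtnf4, at 1.16, -1.33 and 1.80.

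Of 19 genes with several tested probes, 11 had probe means on both sides of 0 and 8 on one side. Fgb and Serpinb1a were among the 8, with means that differed by 0.20 between the probes of each gene. The ranges were 1.55 for C1qbp, 1.31 for Serpinb11 and 1.20 for C1qtnf12. With 1 value per gene, the mean of its probes, the 7 genes Serpina1e, Serpinb1a, Fgg, Fgb, C1qtnf1, Apoc1 and C1d passed under 0, where 3.47% of all genes passed. Above 0, where 2.36% of all genes passed, there was no member, and Serpinb9c had a limma adjusted p of 0.0853.

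**Figure D3:**
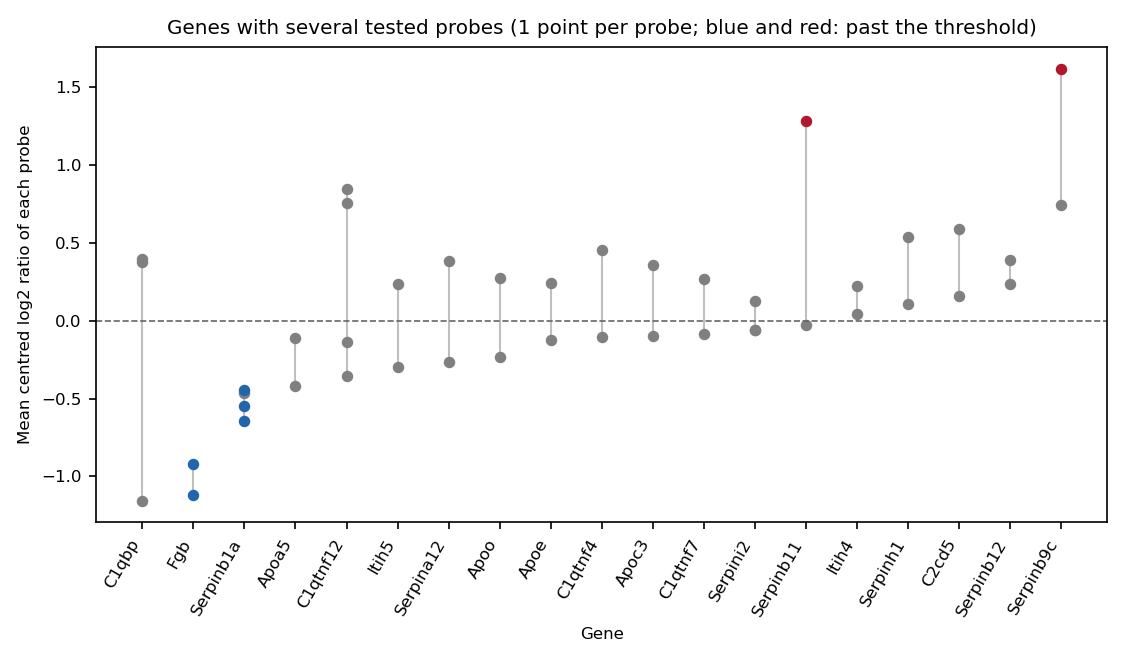
Mean centred log2 ratio of each probe (point) for the 19 genes with several tested probes, in the order of their lowest probe, with probes past the threshold in blue (under 0) and red (above 0). The probes of Fgb and Serpinb1a lie together under 0, while those of C1qbp, C1qtnf12 and Serpinb11 lie far apart.

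By RefSeq's gene order (assembly GRCm38.p6), 23 of the 53 genes lie in 6 groups of near neighbours, each at most 7 protein-coding genes from the next member. Both members of the chromosome 3 group, Fgg and Fgb, passed under 0. In the chromosome 12 group of 6 clade A serpins, Serpina1e passed and the 4 others tested did not. The chromosome 13 group of clade B serpins held Serpinb1a, with 3 probes past the threshold under 0, and Serpinb9c, with 1 past it above 0, while its other members Serpinb9b, Serpinb1b and Serpinb9g did not pass. Per the probe names, Serpina1e shares the source plate ZA-00031 with the probes of Apoa4, Apoa5 and Itih4, whose means on that plate ranged from -0.42 to 0.23 with none past the threshold. Among the marker genes on that plate, Ambp did pass under 0, at -0.77 ± 0.10 (SD, n = 6; limma adjusted p 0.0126). The others did not: Hpx was at 0.03, the Vtn probe there at -0.06, Csf1r at -0.13 and the Rbp4 probe there at 0.49.

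Genes that work with these proteins were read against the 5.49% of all tested probes that passed, a share of probes and not of genes. Among coagulation and fibrinolysis partners, 1 of 3 measured genes passed, at 2 of 7 probes. This was Vkorc1, the vitamin K epoxide reductase, which passed under 0 at 2 of its 5 probes. Those Vkorc1 probes were at -0.54 ± 0.10 and -0.43 ± 0.19 (SD, n = 6; limma adjusted p 0.0219 and 0.0432). Its other probes were at -0.09, -0.02 and -1.02, the last resting on -5.45 on array 6. Among complement regulators and receptors, 1 of 6 measured genes passed, at 1 of 12 probes: Vtn, which encodes vitronectin, whose probes were at -0.94 ± 0.31 (SD, n = 6; limma adjusted p 0.0239) and -0.06. None of 6 lipoprotein enzymes and receptors (8 probes) and none of 5 proteases and serpin targets (18 probes) passed, although 1 and 9 of those probes had an unadjusted limma p under 0.05. The medians of the probe means in these 4 lists were -0.09, -0.10, 0.0026 and -0.19, against 0.03 over all probes.

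Markers of other cell types were measured beside the members, and 3.53% of all tested probes passed under 0 and 1.96% above. Of 7 measured genes for hepatocytes and visceral endoderm, Afp, Ambp and Vtn, which is in both this list and the complement list, passed under 0, at 5 of 13 probes, and none above. Afp, the alpha-fetoprotein gene, was at -2.06, -2.05 and -1.90 at 3 probes and at 0.01 at another. The median over the 13 probes of that list was -0.24 in probe means and -0.26, -0.40, -0.38, -0.50, -0.60 and -0.34 on arrays 1 to 6. Alb, the albumin gene, was at -0.29 ± 0.12 (SD, n = 6) with a limma adjusted p of 0.0622, and Ttr and Hpx were at -0.21, -0.18 and 0.03. Rbp4, the remaining gene, had the highest probe mean of the list, 0.49 ± 1.41 (SD, n = 5), with values from -1.66 to 1.81. Its other probe was at -0.24 ± 0.54 (SD, n = 5). Of 3 macrophage genes, C1qa passed under 0, at -0.40 ± 0.18 (SD, n = 6; limma adjusted p 0.0464), while C1qb, a chain of the same molecule, was at 0.06. Of 5 pancreatic epithelium genes, Cpa1 passed under 0 at all of its 3 probes, of 10 in the list. Of those 10 probe means, 5 were under 0 and 5 above. Nkx6-1 was at 0.39 and 0.73 (limma adjusted p 0.0992 and 0.127) and Ptf1a at 0.20, above 0 on all 6 arrays. Sox9 was at -0.48 and Pdx1 at -0.16, 0.05 and 0.10. Of 4 mesenchyme genes, Sparc passed under 0 at 1 of the list's 7 probes. Other markers passed above 0. Of 3 genes of the liver bud or stomach, Hhex, a transcription factor of the early liver bud, passed above 0, at 1.30 ± 0.55 (SD, n = 5; limma adjusted p 0.0368), at 1 of 8 probes. Of 4 erythroid genes, Hba-a1 passed above 0 at 1 of the list's 47 probes, at 0.40 ± 0.19 (SD, n = 6; limma adjusted p 0.049). The endothelium, platelet and mast cell lists had 1 probe each, and none passed. Whether a different share of liver cells or of other cells in the pools accounts for the fibrinogen, Serpina1e and Apoc1 ratios was not tested.

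The calls changed with the array left out. With each array left out in turn, the Serpina1e probe passed in all 6 fits, the Fgg probe in 2 (without array 2 or 6) and every other probe in 1, which was the fit without array 6 for Serpinb9c and without array 2 for the rest. Serpinb11, measured on 4 arrays, could be fitted only without array 2 or 6, where it had no value. None of its own values was thus left out in these fits, nor was one of Serpinb9c in the fit without array 5. The Fgb probe ZX-00135H16 had adjusted p from 0.00433 without array 2 to 0.0684 without array 5, and its mean stayed between -1.23 and -1.09. For all 11 probes the unadjusted limma p stayed at or under 0.00574 in every fit made, which for Serpinb11 says nothing of its dependence on a single array. Members past the threshold under 0 numbered 1, 12, 1, 1, 1 and 2 without array 1, 2, 3, 4, 5 and 6, while 0.0588%, 3.52%, 0.15%, 0.0439%, 0.0385% and 0.0479% of all tested probes passed under 0. With arrays 3 to 6 alone, the Fgb probe ZX-00135H16 was the only member past the threshold, where 0.0629% of all tested probes passed. The 9 probes under 0 had means from -1.46 to -0.37 over arrays 1 and 2 and from -1.26 to -0.48 over arrays 3 to 6.

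**Figure D4:**
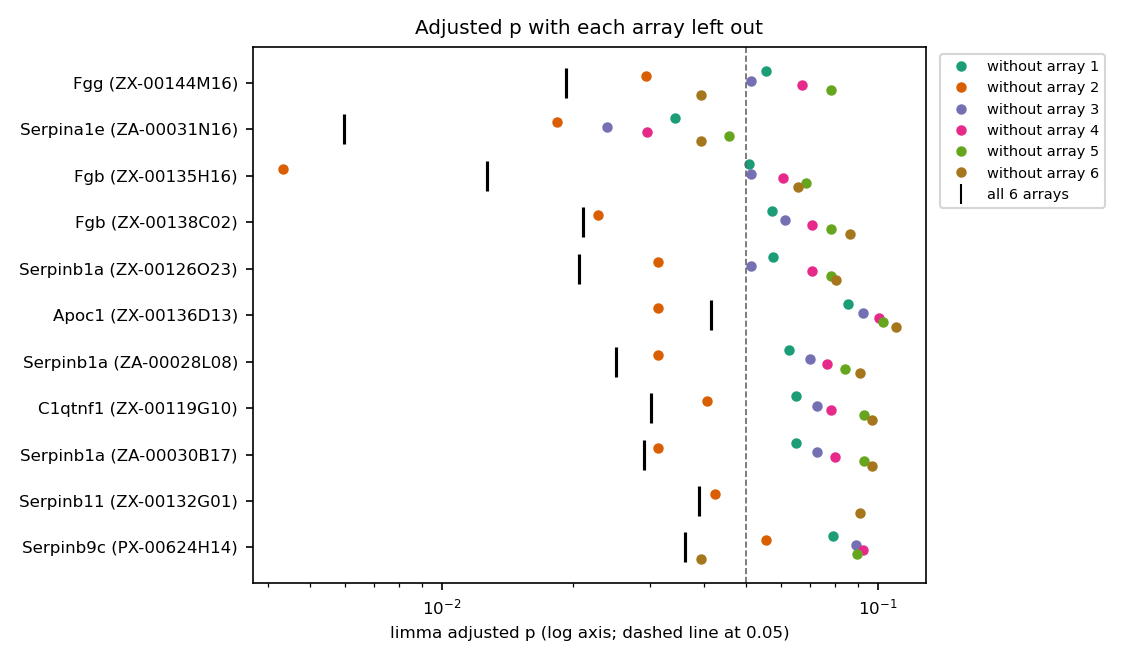
Limma adjusted p on a log axis for the 11 probes past the threshold with all 6 arrays (black bar) and with each array left out (coloured points). Only Serpina1e keeps all its points under the dashed line at 0.05, and most other points under it are fits without array 2.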

How the data were processed

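The authors' deposited table holds log2 ratios of the 2 channels of each array, a base set by its ceiling value, log2 of 1e+05. How the spots were scanned, corrected and normalized, and in which dye each RNA was, is not stated in the sources at hand. The ceiling value was treated as missing (40 to 257 probes per array) and each array was centred on its median, which was -0.007 to 0.198 in the deposited log2 values. Signal over background is unknown, and the number of arrays limits the precision. A two-sided moderated test of the mean against 0 (limma 3.58.1, lmFit and eBayes with an intercept, R 4.3.3) was run where at least 4 arrays had a value. Its p-values were adjusted by Benjamini-Hochberg over every tested probe, with 0.05 as the threshold. The fit was tested on simulated data. Symbols of all 79 member probes were looked up by Entrez ID in RefSeq's gene table and were unchanged. A probe had mostly quotient ratios where over 50% of its deposited values were quotients of whole numbers up to 20, within 6e-04. Named were probes past the threshold with the other probes of the same gene, the highest and lowest mean of each role group and 55 textbook members, of which 14 had a probe. Other genes were named to complete a group. Members and lists were chosen with earlier results of these data known. The alternatives tried left out centring, used scale or quantile normalization or another minimum of arrays, kept the ceiling value, used robust eBayes, array weights, limma's treat at 0.2 or the array set (1 and 2, or 3 to 6) as a term, left out arrays or quotient probes, or took 1 value per gene. Figures were drawn with matplotlib 3.10.9.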

Additional observations from a re-analysis of the deposited data

Results flagged for a closer look

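Among the 36 named probes, 6 had 1 array separated from the remaining 5 by most of the probe's range. Chance alone gives this for about 1 in 20 where probes are independent and arrays scatter equally. Several named probes share a gene and array 2 scattered more, so that rate does not hold for these probes. In 5 of the 6 the separated array was array 2. For Fgb, array 2 gave -0.60 at probe ZX-00135H16 while the rest lay between -1.28 and -1.08. For Serpinb1a, array 2 gave -0.29 at probe ZA-00030B17, where the rest lay between -0.52 and -0.44, and -0.98 at probe ZX-00129I22, where they lay between -0.42 and -0.33. So array 2 was nearest to 0 at one Serpinb1a probe and furthest from it at the other. Array 2 gave 1.45 for Apoe at probe ZX-00143I16, with the rest from -0.20 to 0.19, and 1.38 for Itih5 at probe PX-00630L13, with the rest from -0.14 to 0.25. The exception was Serpinh1, where array 6 gave 2.66 at probe PX-00632E04 and the rest lay between -0.20 and 0.42. Array 2 also varied most over all probes: its median absolute deviation, scaled to the SD of a normal distribution, was 0.545, and the other arrays had 0.27 to 0.442. The part of this spread in these values was not tested.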

How the results depend on the processing

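Counts of member probes past the threshold under 0, 9 in the reported setting, were 16 with array weights, 3 with limma's treat and 1 with arrays 3 to 6 alone, and 7 to 12 in the other settings that kept all arrays. Counts above 0, 2 as reported, were 4 with array weights, 1 without quotient probes and 0 with treat, with the array set as a term, with arrays 3 to 6 alone, with all 6 arrays required and with 1 value per gene. The 2 reported probes were left out of the fits without quotient probes and with all 6 arrays required. These 2 settings therefore do not test their calls, and the 1 call without quotient probes was of another probe. All probes past the threshold, 1166 as reported, numbered 1786 with scale normalization, 2402 with array weights, 37 with treat, 694 with the array set as a term, 13 with arrays 3 to 6 alone and 630 with 1 value per gene. With 1 array left out, members ranged from 1 to 12 under 0 and from 0 to 2 above it, and all probes from 10 to 1072. The members' median of 0.02 ranged from -0.054 to 0.0353 in those fits, and it was under 0 without array 3 (-0.0051), 4 (-0.0439), 5 (-0.054) or 6 (-0.0007). It was 0.12 without centring, where the median over all probes was 0.13, and probes past the threshold were 849 above 0 and 409 under 0, against 416 and 750 with centring. Each array holds both RNAs, so its log2 ratio is already a paired difference and the test against 0 is a paired one. No further pairing was possible with a single group of arrays. Among the named probes no call reversed its direction in these settings.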
